A study of Mus musculus with 8 samples.

Results

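The cytosolic ribosome of mouse hypothalamus was followed through the mRNAs of its proteins in a pool of mice that gained much weight (high gainers) and a pool that gained little weight (low gainers). Members were taken from the gene symbols alone: every array probe annotated to a single gene whose symbol begins with Rpl or Rps and a digit, together with the acidic stalk genes Rplp0, Rplp1 and Rplp2 and with Rpsa. Kinases of the Rps6k family, Rps19bp1 and pseudogene symbols were left out. That gave 61 genes, 41 of the large subunit and 20 of the small subunit, among 13840 genes named on the array. A value on every array compared was present for 58 of them, 39 large and 19 small, among 6170 genes with such a value. The members without it were Rpl37, Rpl3l and Rpsa. The genes Rps4x, Rps4l and Rpl10l were not among the named probes.

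The animals were adult male C57BL/6J mice, an inbred strain, and all of them, high and low gainers alike, were fed a high-fat diet (D12331) for 6 wk, a low-fat diet for 2 wk and again the high-fat diet for 6 wk. In the study's experiment with this schedule, the low-fat diet was given in a restricted amount. The groups differed in the weight they gained, and no gene was altered and no drug given according to the labels, which state no age. Hypothalamus RNA of 20 mice was combined into 1 pool per group, and 4 arrays were run per pool. They are technical replicates of the same RNA, so p-values set the 2 pools against array to array spread only, and the spread from mouse to mouse was not measured.

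Cytosolic ribosomes translate nuclear-encoded mRNA. The large subunit forms the peptide bond and lets the new chain out through a tunnel, and the small subunit reads the mRNA. Their proteins are made in matched amounts, and their mRNAs belong to the most abundant of the cell. Most begin with a C followed by a run of pyrimidines, the TOP motif, through which the kinase mTOR and the protein Larp1 set how much of each mRNA is translated. The arrays measured the mRNAs, not their translation.

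Sequences around the start of the gene are shown for members at both ends of the range of differences between the pools, because a shared start sequence is what these genes are known for. The bases come from RefSeq (assembly GRCm38.p6), which held an entry for 48 of the 58 members. The 8 lines below give 60 bases each, 30 on either side of the annotated start, on the gene's strand from 5′ to 3′. They are the 4 members with the lowest and the 4 with the highest difference among those that could be shown. Only members with a single entry were shown, and 1 chromosome was left out of the display. Rpl17, the member with the lowest difference of all, is not among the lines. Capitals mark CTTTC or CTTCC, the pyrimidine runs searched for on the gene's strand.
Rps26 (chr10:128626477-128626536, minus strand): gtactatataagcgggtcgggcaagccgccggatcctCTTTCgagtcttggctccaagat
Rpl36al (chr12:69184038-69184097, minus strand): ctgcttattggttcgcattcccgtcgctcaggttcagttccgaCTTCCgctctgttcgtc
Rpl14 (chr9:120571487-120571546, plus strand): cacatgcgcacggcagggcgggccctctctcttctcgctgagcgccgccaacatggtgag
Rplp2 (chr7:141447621-141447680, plus strand): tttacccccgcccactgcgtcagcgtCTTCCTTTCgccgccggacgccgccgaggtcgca
Rpl39 (chrX:37085193-37085252, minus strand): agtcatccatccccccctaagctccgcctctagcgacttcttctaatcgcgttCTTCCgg
Rps12 (chr10:23787180-23787239, minus strand): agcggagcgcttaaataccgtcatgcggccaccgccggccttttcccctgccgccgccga
Rpl22l1 (chr3:28805478-28805537, plus strand): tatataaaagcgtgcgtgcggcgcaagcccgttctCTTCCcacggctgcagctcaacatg
Rpl39l (chr16:10170198-10170257, plus strand): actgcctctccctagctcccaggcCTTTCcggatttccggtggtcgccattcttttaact
Matches to CTTTC and CTTCC overlap in Rplp2. Neither run occurs in the shown bases of Rpl14 or Rps12, which says only that these letters were absent from the window. Within 50 bases of the start on either side, CTTTC was found in 26 of the 48 members (54.2%) and in 14.6% of 27025 genes with an entry. CTTCC was found in 23 members (47.9%) and in 22.2% of the genes. At least 1 of the runs was present in 37 members (77.1%) against 32.5% of the genes. CCGGAAG, the core letters bound by ETS family factors such as GABP, was searched on both strands of 300 bases. It was found in 21 members (43.8%) and in 9.93% of the genes. Its reverse strand, CTTCCGG, contains CTTCC, as in the line of Rpl39. The difference between the pools had close medians with and without these letters. Its median was -0.23 log2 units over the 26 members with CTTTC and -0.22 over the 22 without it, and -0.22 over the members with CCGGAAG and over those without.

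Low gainer array 2 stood apart from the other 7 arrays and is described separately below. Of 33012 probes, between 13657 and 16873 had a value on a given array. All differences are between high gainer arrays 1 to 4 and low gainer arrays 1, 3 and 4. On these 7 arrays the hypothalamic neuropeptide genes Oxt, Sst, Hcrt, Npy, Cartpt and Avp had values throughout, and 12 of 18 hypothalamus markers were measured on all 7. Nkx2-1 and Ghrh had probes but no value on any of the 7. The markers measured had a summed intensity of 48.8 to 57.3 in high gainers and 54.4 to 64.5 in low gainers. Their differences had a median of -0.16 log2 units, and 10 of the 12 lay below 0, against 50.4% of all probes. The pituitary hormone genes Gh, Prl and Cga were also measured, with a summed intensity of 8.30 to 10.4 on the high gainer arrays and 0.837 to 1.38 on the low gainer arrays. These 3 were the only probes of 11169 (0.0269%) past an adjusted p of 0.05 by limma, and all were higher in high gainers.

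Most ribosomal protein mRNAs were measured somewhat lower in the high gainer pool than in the low gainer pool, but no member passed the test, and the excess came from low gainer arrays 3 and 4, not from array 1. Of the 58 members, 50 (86.2%) had a negative log2 difference, high minus low gainers, against 50.4% of all probes. The median difference was -0.22 log2 units, against -0.0024 over all 11169 probes. The quartiles were -0.44 and -0.12, and the range ran from -1.26 for Rpl17 to 0.21 for Rpl39l. At an adjusted p of 0.05 by limma 0 members were called, and the smallest adjusted p of a member was 0.750. At an unadjusted p under 0.05 by limma 16 members were lower, against 3.41% of all probes, and 0 were higher, against 3.07%. The study's own methods called a gene at p 0.01 and a fold of 1.5. With limma p-values over the 7 arrays in place of the study's own test, 4 members were lower at these cutoffs, against 0.573% of all probes. These were Rpl17, Rpl36al, Rps26 and Rpl36. By the methods' t-test 0 members were lower at the same cutoffs, and by limma with all 8 arrays 0 of 37. The paper listed no ribosomal protein gene among those altered in hypothalamus. Its qRT-PCR on individual mice bore out none of the array differences it listed. In a whole tissue, fewer cells rich in these mRNAs and less mRNA per cell cannot be told apart. Neither can be told apart here from a shift of signal on single arrays.

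**Figure D1:**
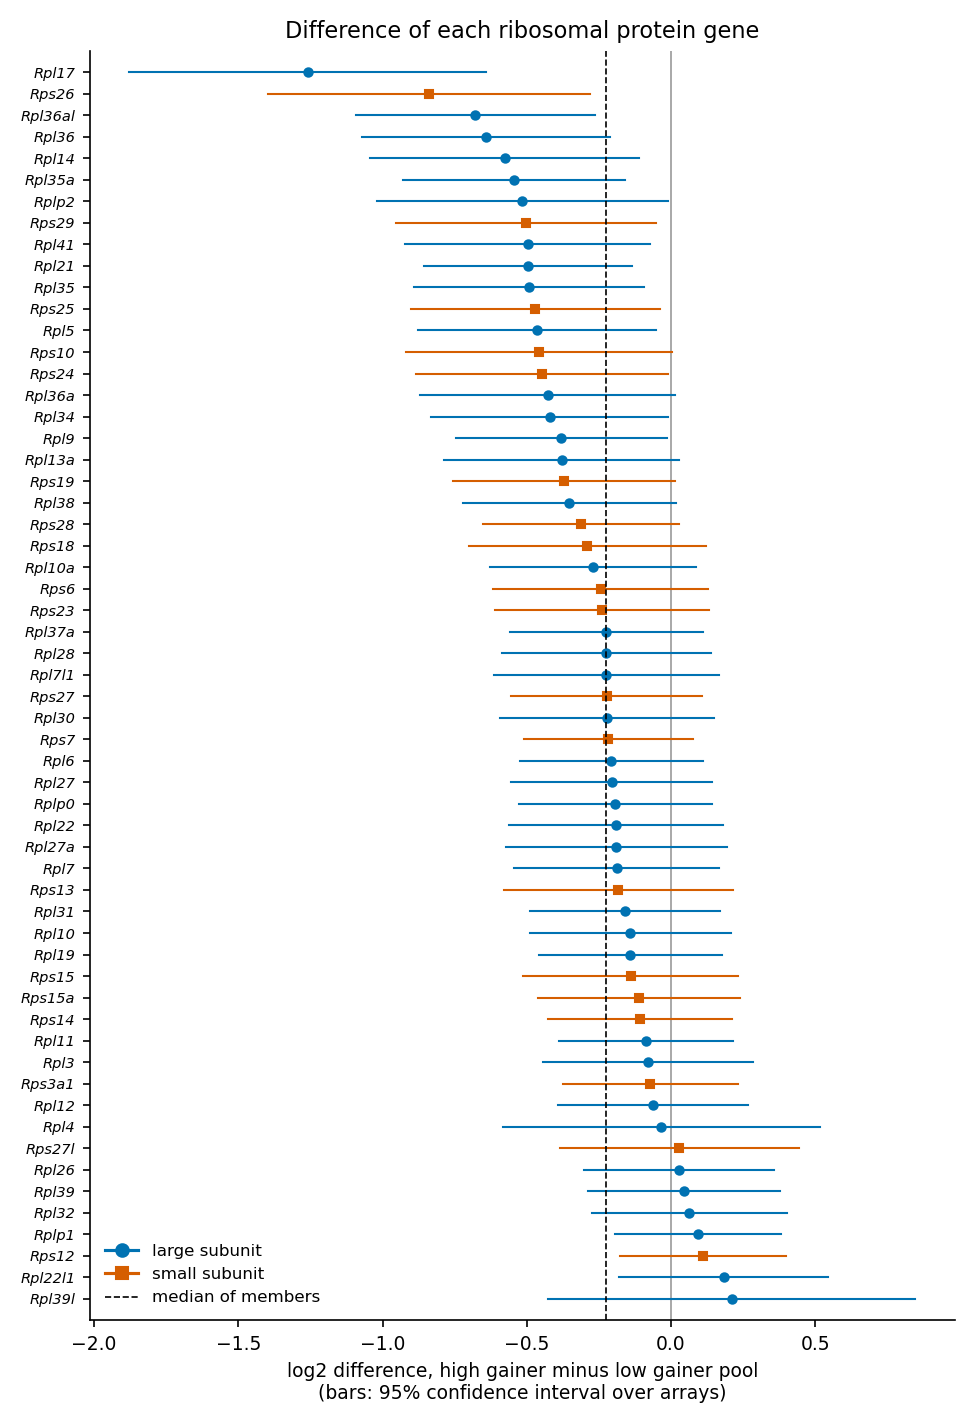
Difference of each of the 58 ribosomal protein genes in log2 units (horizontal axis), high gainer minus low gainer pool, with its 95% confidence interval over arrays. Blue circles are large subunit and orange squares small subunit genes, and 50 of the 58 points lie left of 0, about the dashed median of -0.22.

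Bright probes as a whole did not share the sign. Of the 58 members, 47 lay in the brightest 10% of probes, and that part of the array had a median difference of 0.03 with 45.8% of its probes negative. Ranked by brightness and divided into 3 parts, the members had medians of -0.25, -0.31 and -0.16 from dim to bright, with 18 of 20, 19 of 19 and 13 of 19 negative. Across the 58 members, mean log2 intensity and difference had a Pearson r of 0.14 and a Spearman rho of 0.32, a description of genes that share the same 7 arrays.

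The large and the small subunit had close medians. The median difference was -0.22 over 39 large subunit members and -0.24 over 19 small subunit members, and 33 (84.6%) and 17 (89.5%) of them were negative. Without paralogs the medians were -0.22 over 35 large and -0.24 over 18 small subunit genes. On single arrays, the large subunit median minus the small subunit median lay between -0.07 log2 units (high gainer array 2) and 0.08 (high gainer array 1). At an unadjusted p under 0.05 by limma, 12 of 39 large and 4 of 19 small subunit genes were lower, against 3.41% of all probes.

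Some arrays hybridised with the same RNA differed in ribosomal protein signal by more than the pool means did. Each member was set against its own mean over the 7 arrays. The median of these deviations was -0.26, -0.05, -0.13 and -0.02 on high gainer arrays 1 to 4. For the low gainer pool it was -0.09 on array 1, 0.37 on array 3 and 0.15 on array 4. Low gainer array 1 thus lay among the high gainer arrays, and array 3 lay above all others. From low gainer array 1 to array 3 the median member was higher by 0.42 log2 units, with 53 of 58 members higher on array 3. From array 1 to array 4 the step was 0.24, with 43 of 58 higher. Both steps within 1 pool were larger than the median difference between the pools, which is taken between means of several arrays. Over all probes the same steps were 0.03 and 0.02. For pairs of single arrays the members' median step was 0.03 to 0.42 in size within pools and 0.04 to 0.58 between pools. Within the high gainer pool, array 4 exceeded array 1 by a median of 0.32. The mean of the high gainer arrays and low gainer array 1 were apart by a median of -0.03.

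**Figure D2:**
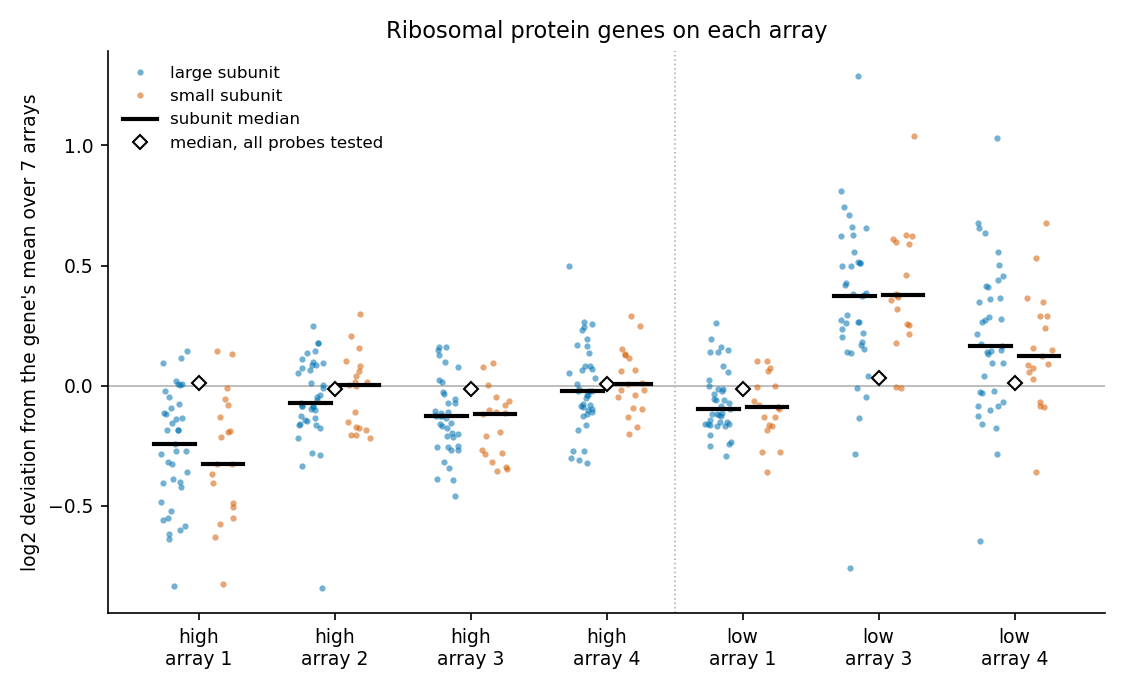
Log2 deviation of each of the 58 ribosomal protein genes from its own mean over 7 arrays (vertical axis), by array, with large subunit genes in blue and small subunit genes in orange. Black bars are the subunit medians and open diamonds the median of all 11169 probes, which stays near 0 while the bars rise to 0.37 and 0.38 on low gainer array 3.

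Counted gene by gene, low gainer array 3 gave the highest of the 7 normalized values for 40 of 58 members (69.0%), against 23.7% of all probes. High gainer array 1 gave the lowest for 29 (50%), against 14.0% of all probes. For 43 members (74.1%) low gainer array 1 lay within the range of the high gainer arrays, against 59.8% of all probes. Low gainer arrays 3 and 4 both exceeded every high gainer array for 28 members (48.3%), against 14.99% of all probes. All 3 low gainer arrays did so for 4 members, Rpl36al, Rpl35a, Rpl35 and Rps7, and 2.7% of all probes had their groups apart in that direction. No member had its groups apart with high gainers above, a pattern of 2.07% of all probes.

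Single low gainer arrays moved both the size of the difference and the number of calls. Without low gainer array 3 the median over members was -0.14, and without array 4 it was -0.26. Without array 1 it was -0.34, and 7 members were called lower by limma: Rpl17, Rps26, Rpl14, Rpl36, Rps29, Rpl35a and Rpl21, with adjusted p from 0.00212 to 0.0472. That comparison was fitted to 11247 probes and called 171 of them. Rpl17 was also called when the replicate number entered as a block, at -1.16 with an adjusted p of 0.00590 by limma, in a comparison that called 9 of 11169 probes. All 58 members kept a place in each of these comparisons.

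Marker signals of cell types also differed between these arrays. Arrays of 1 pool were hybridised with the same RNA, so steps among them compare arrays and not tissues. Summed red cell markers (Hba-a1, Hbq1a and Alas2, 3 of 12 measured) were 8.94 to 14.8 in high gainers, and 18.4, 37.2 and 29.2 for arrays 1, 3 and 4 of the low gainers. By these sums they had the same order among the low gainer arrays as the ribosomal protein median. By median deviation, 0.445, 0.782 and 0.401 on low gainer arrays 1, 3 and 4, arrays 1 and 4 changed places. The 12 hypothalamus markers had that order by median deviation (-0.03, 0.26 and 0.16) but not by sum (54.59, 64.52 and 54.37). In both lists array 3 was the highest low gainer array by either measure. Summed oligodendrocyte markers (7 of 10 measured) were 58.9 to 92.9 in high gainers, and 47.2, 18.9 and 60.1 for arrays 1, 3 and 4 of the low gainers, so low gainer array 3 was lowest. Choroid plexus markers (5 of 8 measured, nearly all of the sum from Ttr) had sums of 262.5 to 302 in high gainers and 290.3 to 397 in low gainers. The part of these cell types, pituitary and hypothalamus markers included, in the ribosomal protein difference between the pools was not tested. Neuron markers summed to 121 to 152 and 139 to 147, with a median difference of 0.01 over 6 genes. Astrocyte markers summed to 4.44 to 7.25 and 3.43 to 6.30, with a median of 0.35 over 4 genes, and microglia markers to 15.8 to 19.0 and 14.8 to 17.2, with a median of 0.11 over 5 genes.

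Of the large subunit genes, Rpl17 differed most. Rpl17 is a protein that reaches into the exit tunnel. Its deposited intensity was 11.6, 11.3, 15.8 and 20.2 on high gainer arrays 1 to 4, against 18.6, 59.5 and 39.9 for arrays 1, 3 and 4 of the low gainer pool. The order of arrays given for single genes is that of the deposited intensities unless normalization is named, while differences come from normalized values. The value on low gainer array 1 lay below that on high gainer array 4, so the groups overlapped, while arrays 3 and 4 were far above. The means were 14.7 ± 4.17 (SD, n = 4) and 39.3 ± 20.4 (SD, n = 3), and the log2 difference was -1.26 (95% confidence interval -1.88 to -0.64), or 2.39-fold in low over high gainers. Its spread within the pools was also the widest of all members, with an SD of 0.57 log2 units pooled over both.

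Rpl36al, a near-identical copy of Rpl36a, kept its groups apart. It was at 6.96, 10.7, 8.39 and 8.53 in high gainers, in array order, and at 11.6, 18.4 and 12.2 in low gainers. The difference was -0.68 (-1.09 to -0.26), 1.60-fold in low over high. For Rpl36a itself the values were 22.8, 31.3, 33.6 and 40.9 and 34.2, 66.3 and 38.6, with a difference of -0.43. Low gainer array 1 lay inside the high gainer range for Rpl36a and above it for Rpl36al. Which transcript each probe catches was not tested, since probe sequences were not used here.

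Rpl36, another large subunit protein, had 6.29, 8.58, 8.22 and 9.84 against 9.51, 16.2 and 13.4, a difference of -0.64 (-1.07 to -0.21). Again low gainer array 1 fell below high gainer array 4. Rpl35a, one of the genes mutated in Diamond-Blackfan anaemia, an inherited failure of red cell production, had 6.47, 7.14, 7.60 and 7.01 against 8.0, 13.3 and 10.4. Every low gainer array was above every high gainer array, and the difference was -0.54 (-0.93 to -0.16). Rpl35, which sits beside the exit tunnel, had 17.6, 23.0, 22.1 and 24.6 against 25.3, 46.5 and 26.0. Its groups were apart too, though closely, at 24.6 on high gainer array 4 and 25.3 on low gainer array 1, and the difference was -0.49.

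**Figure D3:**
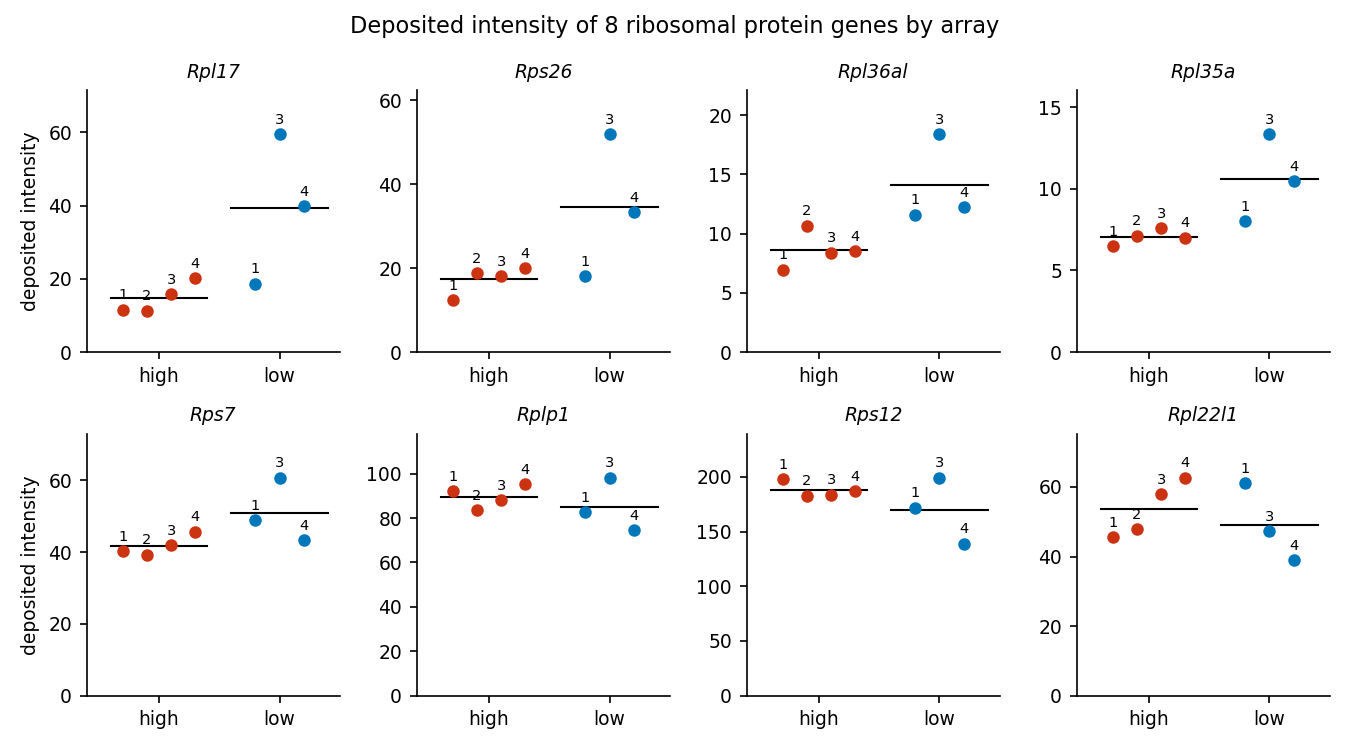
Deposited intensity (vertical axes from 0) of 8 ribosomal protein genes on each array, high gainers in red and low gainers in blue, with the array number above each point and a line at the group mean. Rpl17 and Rps26 on low gainer array 1 lie among the high gainer arrays and far below arrays 3 and 4, while for Rplp1 and Rps12 low gainer arrays lie on both sides of the high gainer arrays.

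Rpl14, Rpl21 and Rpl41 followed the same course. Rpl14 had 7.33, 7.35, 6.64 and 9.97 in high gainers and 7.81, 14.2 and 14.2 in low gainers, a difference of -0.58. Rpl21 had 53.4, 56.9, 72.7 and 74.0 against 73.1, 119 and 82.8, a difference of -0.50. Rpl41, the smallest protein of the ribosome, had 26.1, 39.8, 30.2 and 38.5 against 36.0, 68.1 and 45.1, a difference of -0.50. In each of the 3 genes low gainer array 1 lay inside the high gainer range and array 3 was the highest of all. For Rpl14 arrays 3 and 4 were nearly equal, and array 4 was the highest after normalization. Their intervals were -1.04 to -0.11, -0.86 to -0.14 and -0.92 to -0.07.

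The stalk of the large subunit, which recruits translation factors, had differences of both signs. Rplp0, its base, had 11.2, 12.6, 10.6 and 9.66 against 12.2, 13.3 and 12.4, a difference of -0.19 (-0.53 to 0.14). Rplp1 had 92.0, 83.5, 88.1 and 95.2 against 82.5, 98.2 and 74.6, with a difference of 0.09 (-0.20 to 0.38). Low gainer arrays lay on both sides of the high gainer arrays in the deposited values, but none lay above them after normalization. Rplp2 had 8.84, 13.9, 11.1 and 12.8 against 10.9, 25.2 and 16.6, a difference of -0.51 (-1.02 to -0.01). Whether these 3 differ from each other was not tested. Rplp1 had the narrowest spread within pools of all members, an SD of 0.06 log2 units, and Rplp2 had 0.42.

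On the small subunit, Rps26 differed most. Rps26 lies where the mRNA leaves the ribosome and is another Diamond-Blackfan anaemia gene. It had 12.3, 18.8, 18.01 and 20.01 in high gainers and 18.1, 51.9 and 33.3 in low gainers. Low gainer array 1 fell between high gainer arrays 3 and 2, and the other 2 low gainer arrays were far above. The means were 17.3 ± 3.40 (SD, n = 4) and 34.5 ± 16.9 (SD, n = 3), with a difference of -0.84 (-1.40 to -0.28), 1.79-fold in low over high. Its pooled SD within the pools, 0.50 log2 units, was the third widest.

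Rps29, Rps25 and Rps24 came next. Rps29 had 26.9, 36.1, 40.3 and 35.7 against 33.9, 71.1 and 52.7, with a difference of -0.50. Rps25, which several viruses need for internal initiation, had 15.4, 19.4, 21.6 and 24.9 against 20.5, 39.9 and 26.9, with a difference of -0.47. Rps24 had 17.2, 20.3, 19.3 and 31.5 against 23.8, 41.6 and 26.7, with a difference of -0.45. Low gainer array 1 lay inside the high gainer range for all 3, and array 3 was the highest. Of 19 small subunit genes 4, these 3 and Rps26, were lower at an unadjusted p under 0.05 by limma, against 3.41% of all probes.

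For Rps10, Rps19 and Rps28 the confidence interval included 0. Rps10 had 16.5, 27.9, 20.3 and 26.2 against 23.6, 44.2 and 28.6, a difference of -0.46 (-0.92 to 0.0032). Rps19, the gene most often mutated in Diamond-Blackfan anaemia, had 18.4, 26.9, 23.0 and 26.6 against 25.2, 37.6 and 31.9, a difference of -0.37 (-0.75 to 0.01). Rps28 had 28.3, 30.3, 34.2 and 40.2 against 36.8, 55.5 and 38.6, a difference of -0.31 (-0.65 to 0.03). All 3 showed low gainer array 3 highest and array 1 within the high gainer range. Rps7 had 40.3, 39.3, 41.9 and 45.7 against 48.9, 60.8 and 43.4, a difference of -0.22 (-0.51 to 0.08). Its groups were apart after normalization only, since in the deposited values low gainer array 4 fell below high gainer array 4. Its spread within pools, an SD of 0.08 log2 units, was among the 3 narrowest.

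The members with differences nearest 0 were Rpl26, Rpl4 and Rpl39 on the large and Rps27l, Rps3a1 and Rps14 on the small subunit. Rpl26 had 96.5, 135, 122 and 123 against 116, 137 and 87.3, and Rpl39, a protein of the exit tunnel, had 111, 103, 138 and 144 against 134, 128 and 87.1. Low gainer array 4 was the lowest of the 7 for Rpl39, and for Rpl26 in the deposited values only. Rps3a1 had 59.5, 52.9, 48.9 and 53.9 against 59.1, 64.4 and 52.8, and Rps14 had 25.2, 31.9, 29.3 and 29.0 against 32.0, 37.4 and 26.5. Their differences were 0.03, 0.05, -0.07 and -0.11. That of Rpl4, a protein of the tunnel wall, was -0.03 with an interval of -0.58 to 0.52, wide on both sides of 0.

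The 8 members with a positive difference were Rpl39l, Rpl22l1, Rps12, Rplp1, Rpl32, Rpl39, Rpl26 and Rps27l, between 0.03 and 0.21, and all of their intervals included 0. Several of these signs turned. Rps27l was below 0 with median centring, array weights or all 8 arrays, and without high gainer array 3 or 4 or low gainer array 4. Rpl26 was below 0 with array weights, the replicate block or the mean of its probes, and without high gainer array 2 or low gainer array 4. Rpl39 was below 0 without high gainer array 3 or 4 or low gainer array 4, and Rpl39l without low gainer array 3. Rpl22l1, Rps12 and Rplp1 stayed above 0 in every alternative that was run and held them. Rps12 had 198, 183, 184 and 187 against 172, 199 and 139, a difference of 0.11 (-0.18 to 0.40). In the deposited values low gainer array 3 was the highest and array 4 the lowest of the 7, while after normalization array 3 lay inside the high gainer range and arrays 1 and 4 were the lowest.

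Paralogs are further copies of a ribosomal protein gene, often used in particular tissues, and in 2 of the 5 measured pairs, Rpl22l1 with Rpl22 and Rps27l with Rps27, the copy and its partner had opposite signs. Neither pair kept them throughout. Without low gainer array 3 Rpl22 was at 0.01, and the alternatives that put Rps27l below 0 gave it the sign of Rps27. Rpl22l1, the copy of Rpl22, had 45.6, 47.9, 57.9 and 62.7 in high gainers and 61.2, 47.2 and 38.9 in low gainers, a difference of 0.18 (-0.18 to 0.54). Among the low gainer arrays it ran against the family, with array 1 highest. Rpl22 had 16.1, 15.3, 17.2 and 16.6 against 15.4, 26.4 and 16.4, a difference of -0.19 (-0.56 to 0.18), and low gainer array 3 stood alone above the rest.

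Rpl39l, a copy of Rpl39 known from testis, was at 0.967, 1.31, 1.21 and 1.66 against 1.01, 0.619 and 1.95. Low gainer arrays 3 and 4 were its lowest and highest values, and its difference of 0.21 had an interval of -0.43 to 0.85. Rps27l, a copy of Rps27 that the tumour suppressor p53 induces, had 5.18, 4.61, 5.73 and 6.64 against 5.48, 6.92 and 4.31, a difference of 0.03. Rps27 had 65.7, 86.0, 96.7 and 91.1 against 95.2, 119.7 and 79.2, a difference of -0.22. In both, low gainer array 3 was the highest of the 7. Rpl7l1 had 3.33, 3.80, 3.07 and 3.13 against 3.16, 4.59 and 4.02 and Rpl7 had 33.4, 43.7, 45.2 and 34.4 against 46.0, 58.6 and 36.9, with differences of -0.22 and -0.19. Rpl3 and Rpl10, whose copies were not measured on all 7 arrays, had differences of -0.08 and -0.14. No difference between a copy and its partner was tested.

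For 3 members values were too sparse to compare. Rpl3l, a copy of Rpl3 known from muscle, had a value on high gainer array 2 (0.382) and low gainer array 4 (0.227) only. Rpsa, the laminin receptor and small subunit protein, had one on the same 2 arrays (0.220 and 0.0568). Rpl37 had values on high gainer array 3 (0.185), low gainer array 4 (0.110) and low gainer array 2 (0.274). An empty cell gives no level, and what left it empty is not given in the sources used here.

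Several probes were present for 9 members, and the brightest one stands for the gene above. They did not always go together. For Rpl26 the second probe had 21.6, 28.4, 25.8 and 34.1 in high gainers and 31.1, 58.1 and 38.5 in low gainers, a difference of -0.52, where the brightest had 0.03. For Rplp0 the second probe had 5.90, 3.69, 5.74 and 5.77 against 4.90, 4.57 and 3.37, a difference of 0.31, where the brightest had -0.19. The mean over the probes of a gene was -0.25 for Rpl26 and 0.06 for Rplp0, so the sign of both turned. For Rpl31 the 3 probes had -0.16, -0.39 and 0.02. For Rpl14 both probes were negative (-0.58 and -0.35), as for Rpl22 (-0.19 and -0.27). The second probes of Rpl21, Rpl34, Rps15a and Rps24 lacked a value on at least 1 of the 7 arrays.

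Spread over the arrays of 1 pool was wider in low gainers. The median SD of a member was 0.19 log2 units over the 4 high gainer arrays and 0.29 over the 3 low gainer arrays, and 41 of 58 members (70.7%) had the larger SD in low gainers. All probes behaved the same way, with 0.22 and 0.33 and 72.5%. Members with a wide spread in the low gainer pool had the more negative differences. Pearson r was -0.55 and Spearman rho -0.56 over 58 members that share those arrays. Spread and difference were computed from the same low gainer values, so the relation is partly built in. The step from low gainer array 1 to array 3 and the step from array 1 to array 4 went together across members (r = 0.58, rho = 0.62), though both contain array 1. The step from high gainer array 1 to array 4, from different arrays, had an r of 0.39 with the former.

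Values on low gainer array 2 did not follow those of the other arrays across members. Whether each value on array 2 belongs to the gene it is listed under was not tested. It had a value for 37 of the 58 members (63.8%), against 48.1% of all probes. Of the 37, 33 lay below all 7 other arrays. The same count over all probes was not made, and 47 of the 58 members lay in the brightest 10% of probes. On array 2 the median member was 14.5 times lower than the median of the other arrays, and 24 members were over 10 times lower. Rpl26 was at 0.370 there and at 87.3 to 137 elsewhere. Rps3a1 was at 0.287 and at 48.9 to 64.4 elsewhere. Rps19 was at 0.154 and at 18.4 to 37.6 elsewhere.

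Against this, Rpl27a was at 60.8 on low gainer array 2 and at 7.64 to 12.1 on the others, Rpl4 at 17.1 and at 0.867 to 1.69, and Rps27l at 20.5 and at 4.31 to 6.92. Rplp2, at 13.4, was the only member within the range of the others. Across the 37 members its log2 intensities had a Pearson r between -0.295 and -0.180 with the other arrays, while the other arrays had r between 0.938 and 0.995 with each other over 58 members. Array 1 of the low gainers correlated with the high gainer arrays at 0.986 to 0.995 and with low gainer arrays 3 and 4 at 0.966 and 0.964. With low gainer array 2 included, the median difference turned to 0.57 over 37 members, 7 of them negative, and 27 members changed sign. The sign of the median thus differed with and without that array.

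**Figure D4:**
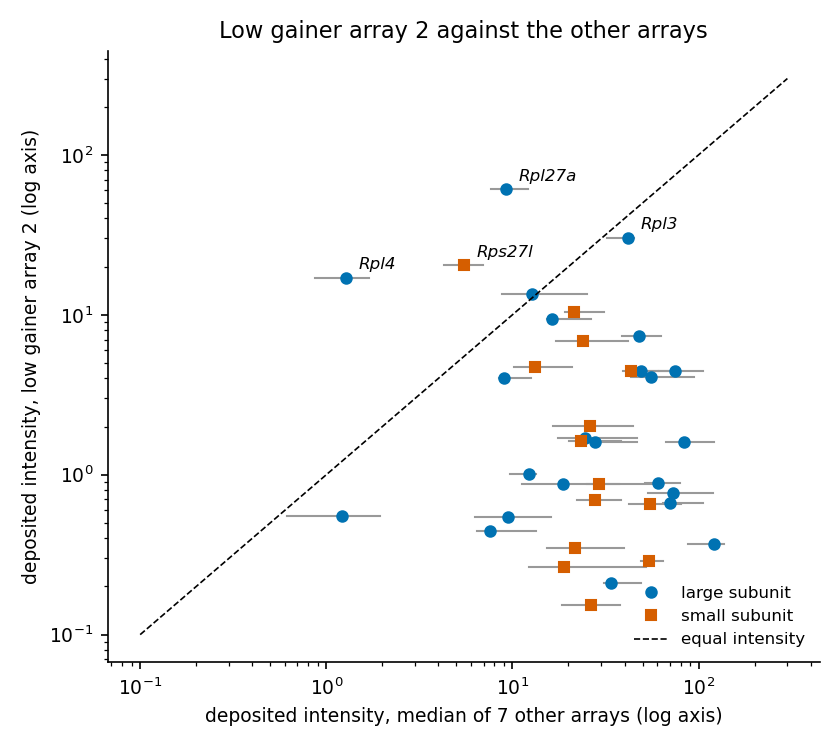
Deposited intensity on low gainer array 2 (vertical, log axis) against the median of the 7 other arrays (horizontal, log axis) for the 37 ribosomal protein genes with a value there; grey bars span the 7 other arrays and the dashed line marks equal intensity. Of the 37 points 33 lie below the range of the other arrays, and Rpl27a, Rpl4 and Rps27l lie above it.

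Other genes of translation had medians nearer 0. Of 39 translation factors, 25 were measured on all 7 arrays, 12 negative and 13 positive, with a median of 0.02. Their summed intensity was 426.7 to 469 in high gainers and 453 to 470.2 in low gainers, and their median deviation on low gainer array 3 was -0.11, where that of the ribosomal proteins was 0.37. Eif3k, a subunit of an initiation factor, was at -0.36, and Eef2, which moves the ribosome along the mRNA, at 0.46. Among 33 measured of 49 ribosome biogenesis genes, 21 were negative, against 50.4% of all probes, and the median was -0.08. Nop10, a small nucleolar particle protein, was at -0.42 and Imp3 at -0.32. By limma 0 of these were called at an adjusted p of 0.05, and at an unadjusted p under 0.05 only Nop10 was among them.

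Fau, whose product is split into a ubiquitin-like protein and a small subunit protein, fell outside the symbol rule. It had 2.78, 2.72, 3.04 and 3.61 in high gainers against 3.21, 5.52 and 4.62 in low gainers, a difference of -0.52. Low gainer array 1 again lay within the high gainer range. Btf3, which binds new chains at the ribosome, was at 0.06. Of 21 genes that carry signals to ribosomal protein mRNAs 6 were measured, with a median of -0.01. Akt1, a kinase upstream of mTOR, was at 1.00, with 1.82, 1.84, 1.18 and 1.44 in high gainers against 0.876, 0.368 and 1.35 in low gainers, so its groups overlapped. Its adjusted p by limma was 0.750.

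Mitochondrial ribosomal protein genes, which serve the separate ribosome of that organelle, had a median of the same sign. Of 65 such genes 58 were measured, 45 negative (against 50.4% of all probes) and 13 positive, with a median of -0.14. Their median deviation was -0.02, 0.30 and 0.06 on low gainer arrays 1, 3 and 4, so array 3 was the highest of the low gainer arrays here as well. Mrpl11 was at -0.70 and Mrpl42 at -0.50, and by limma 0 of the 58 were called. At an unadjusted p under 0.05 by limma 3 were lower and 0 higher, against 3.41% and 3.07% of all probes. These lists were not tested against the cytosolic ribosome.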

How the data were processed

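Pooled hypothalamus RNA was labelled with digoxigenin and hybridised to 1-colour Applied Biosystems mouse genome arrays read by chemiluminescence. The deposited values are intensities on a linear scale on which the authors had run a quantile normalization (stated in their methods), with empty cells that no source used here explains. The platform annotation named 1 gene for 14411 of 33012 probes, several for 247 and none for 18354, and 14402 matched RefSeq (GRCm38.p6) by gene identifier. For the array's own design no build was named.

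Groups were taken from the sample labels. Deposited intensities were log2 transformed and, because the arrays did not share one distribution, quantile normalized again over those 11169 probes that were measured on each of the 7 arrays. For the comparison of high with low gainers, limma (version 3.58.1, under R 4.3.3) was fitted to all these probes by lmFit and eBayes with trend, with Benjamini-Hochberg adjustment at 0.05. A second threshold was that of the study's methods (p 0.01 and a fold of 1.5, unadjusted), applied to the limma p-values. A gene was represented by its brightest probe. Low gainer array 2 was left out of the comparison and shown apart. The procedure was tested on simulated data with noise drawn independently for each probe. Shifts shared by many genes on single arrays were not simulated. The number of arrays limits the precision.

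Members and lists were chosen with earlier results of these data known. Named members were the 8 of each subunit with the smallest p, the 3 of each nearest 0, the stalk genes, paralogs with their partners, the 3 widest and 3 narrowest in spread, and genes with several probes. For the other 13 lists the 2 members with the smallest p could be named, and cell type markers were given by sums and medians. Alternatives were median centring, cyclic loess, deposited values as given, the brightest 50% or 10% of probes, a pseudocount of 0.18 (the 10th percentile of all values), all 8 arrays, no trend, array weights, the replicate number as a block, the mean of all probes of a gene, the methods' t-test with Benjamini-Hochberg adjustment beside it, and leaving out each array.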

Additional observations from a re-analysis of the deposited data

Results flagged for a closer look

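Single arrays of the high gainer pool lay far from the other 3 for 2 of 38 named members. Rps26 had an intensity of 12.3 on high gainer array 1, and after normalization its log2 value lay below the others by 0.85 of the pool's whole range. Rpl22 had 17.2 on high gainer array 3, and its normalized log2 value lay above the others by 0.89 of the range, although its 4 deposited intensities were close together, from 15.3 to 17.2. Such a gap appears by chance in about 1 group in 20 (5%), and 38 groups were searched.

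In the low gainer pool, the median log2 deposited intensity over the 37 members with a value on all 4 arrays was 0.68 on array 2, against 4.66, 5.39 and 4.88 on arrays 1, 3 and 4. The gap took up 0.84 of the range. On the same array, which the comparison did not use, 3 members had more signal than on any high gainer array: Rpl27a with an intensity of 60.8, Rpl4 with 17.1 and Rps27l with 20.5. Whether these values belong to the genes named was not tested.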

How the results depend on the processing

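Under 10 alternatives that kept the same 7 arrays, and without each array in turn, the median difference over members stayed negative, between -0.34 (without low gainer array 1) and -0.14 (without low gainer array 3). With all 8 arrays it was 0.57, with 7 of 37 members negative and a large minus small subunit median of -0.12. The methods' t-test called 0 members after adjustment. Members called lower at an adjusted p of 0.05 by limma ranged from 0 to 7 when each array was left out, the 7 without low gainer array 1, and numbered 1 with the replicate number as a block. Members lower at the methods' threshold numbered 4 in the comparison reported and 0 with all 8 arrays, 1 with the brightest 10% of probes, 2 without a trend, 7 with the replicate block and 0 by the methods' t-test, and ranged from 1 (without high gainer array 1 or low gainer array 3) to 15 (without low gainer array 1) when each array was left out. Over all probes, in either direction, the same threshold was passed by 115 in the comparison reported, 64 of them lower. It was passed by 15 with the brightest 10%, 3 with all 8 arrays, 95 without a trend and 176 with the block. The number was 40 without high gainer array 1, 669 without low gainer array 1 and 23 without low gainer array 3. Without low gainer array 4 it was 298, where 2 members were lower, and with array weights 266, where 6 members were lower. The causes were not tested, except that 8 arrays left 37 members and the brightest 10% left 47. The replicate numbers did not pair the arrays: deviations of arrays 1, 3 and 4 correlated across probes with r of -0.20, 0.13 and -0.14 between the pools. At the adjusted threshold the replicate block changed no call of a named member other than that of Rpl17.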
